A study of Sus scrofa with 9 samples.

Results

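The genes described here encode the proteasome, measured in developing molars of the miniature pig. They were chosen by name: every probe set of the Affymetrix Porcine Genome Array whose single gene symbol starts with PSMA, PSMB, PSMC, PSMD, PSME, PSMF or PSMG, with the brightest probe set standing for each gene. This gave 46 probe sets for 40 genes, among 23999 probe sets tested and 6765 genes with a symbol. The additional molars, which have no deciduous predecessor, were dissected with the dental lamina attached from mandibles of Wuzhishan miniature pig fetuses. At E50 (embryonic day) M1, the foremost additional molar, was at the cap stage and M2, the next one, had not started. At E60 M1 was at the bell stage with M2 initiating, and at E70 M1 was at the late bell stage. Each stage had 3 arrays that the labels call biological replicates. All animals were of this breed and untreated, and RNA of germs from the same stage and litter was pooled. Whether the 3 arrays of a stage came from separate pools or litters is not stated.

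The proteasome degrades proteins tagged with ubiquitin. Its core particle is a barrel of alpha rings, which form the gate, and beta rings, of which a few subunits carry the proteolytic sites. The regulatory particle caps the barrel, where ATPases (PSMC genes) unfold the substrate and non-ATPase subunits (most PSMD genes) bind ubiquitin and remove it. Cells exposed to interferon, and many leukocytes, replace the active beta subunits by immune forms, which shapes the peptides shown on class I molecules. In tooth germs the constitutive proteasome is a general housekeeping complex.

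Among the 40 genes were 14 of the core particle (7 alpha and 7 beta), 15 of the regulatory particle (5 ATPases and 10 non-ATPases) and 4 immune ones, the beta subunits PSMB8 and PSMB10 and the activator subunits PSME1 and PSME2. The other 7 were the assembly chaperones PSMD5, PSMD10, PSMG1 and PSMG3, the activators PSME3 and PSME4 and the inhibitor PSMF1. The immune subunit PSMB9, the ATPase PSMC4 and the family genes PSMA8, PSMB11, PSMD7, PSMD9, PSMG2 and PSMG4 had no probe set under the rule. They were not analysed here. On all 9 arrays 37 of the 40 genes exceeded the array background, which was the 95th percentile of 23 control probe sets for foreign or bacterial transcripts. PSMB8 and PSMF1 exceeded it on 2 of 3 E50 arrays and PSME3 on 1, and all 3 genes did so on every E60 and E70 array.

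The E50 arrays stood apart from the others. For EF1A, a control gene with probe sets at both ends of its transcript, the ratio of 3′ to 5′ signal lay between 49.3 and 55.8 on the E50 arrays, 1.42 and 1.56 on the E60 arrays, and 1.35 and 1.47 on the E70 arrays. For GAPDH the ranges were 29.7 to 42.2, 6.98 to 9.24 and 4.36 to 6.47. For beta-actin they were 165 to 2308, 30.1 to 34.9 and 22.9 to 26.3. By GAPDH and beta-actin the later arrays were thus skewed too, and all E60 arrays more than the E70 arrays. Background lay between 77.7 and 379 signal units on E50 arrays and between 37.9 and 55.8 on the later ones. The proteasome genes themselves varied less than most: their median SD on the log2 scale was 0.24 among E50, 0.08 among E60 and 0.18 among E70 arrays, against 0.51, 0.18 and 0.25 for all genes. They were also brighter, with a median of 10.95 for the mean log2 signal, against 8.75 for all genes. Stage E50 and this 3′ skew cannot be told apart. Of the tissue's markers, 4, 4 and 6 of 8 for tooth epithelium and 8, 9 and 8 of 10 for dental mesenchyme exceeded background on all arrays of E50, E60 and E70. These markers moved with the stages too. Of the mesenchyme markers 3 were called higher and 3 lower for E60 minus E50 (60%, against 20.9% of all genes). Their summed signal lay between 267431 and 309410 on E50 arrays, 171051 and 173420 on E60 arrays, and 98733 and 140834 on E70 arrays. Of the epithelium markers 3 were called higher and none lower for E70 minus E50 (37.5%, median 1.35). Of all genes 21.6% were called in either direction and 7.33% higher. Their part in the proteasome values was not tested.

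Between cap and bell stage the calls among proteasome genes were 3 alpha ring genes and both immune beta genes, lower at E60, and 1 ATPase gene, higher at E60. A change was called when limma's adjusted p, over all probe sets, was under 0.05. Of the 40 genes 6 were called between E60 and E50 (15%), while 18.5% of all probe sets and 20.9% of all genes were called in this comparison, so the share among proteasome genes was no higher than the background. PSMC6 was higher at E60, where 7.2% of all genes were called higher, and PSMA2, PSMA5, PSMA6, PSMB8 and PSMB10 were lower, as were 13.7% of all genes. The median change of the 40 genes was -0.04 on the log2 scale, against -0.18 for all probe sets. After quantile normalization this order was reversed, with -0.15 for the 40 genes and 0.0006 for all probe sets. For 21 genes the 95% interval of the change stayed within a 2-fold difference in both directions. In 25 of the 40 genes (62.5%) the arrays of E60 and E50 did not overlap, 12 being higher and 13 lower at E60. Over all genes 45.7% did not overlap (18.2% higher and 27.5% lower), and over all probe sets 39.2%. The calls depended on the scaling of the arrays: with each array centred on its median log2 value, which raised every E60 minus E50 change by 0.77, 14 of the 40 genes were called, all higher, and PSMC6 alone was shared with the 6.

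**Figure D1:**
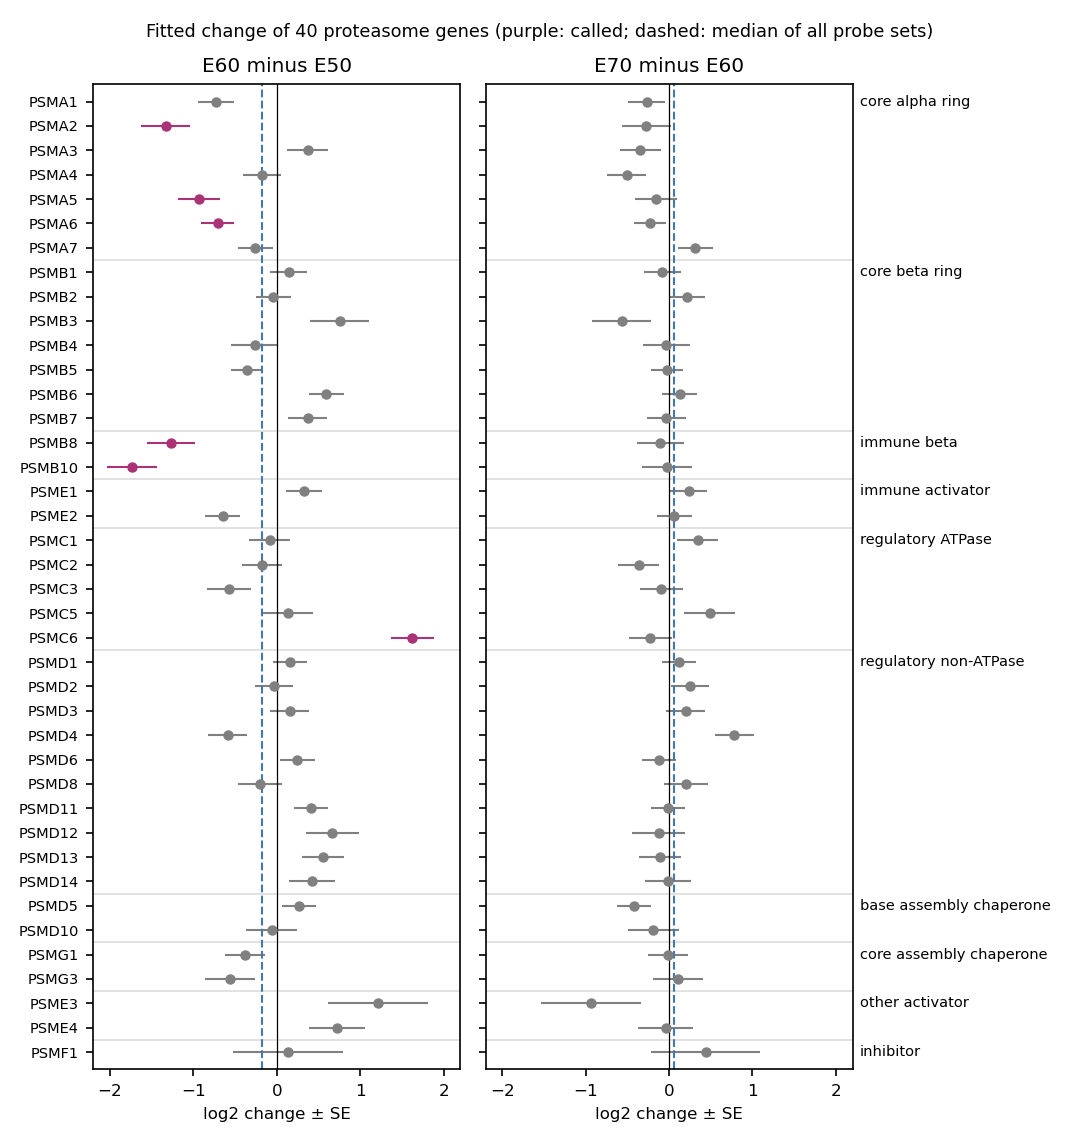
Fitted log2 change of each of the 40 genes (point) with its SE (bar) for E60 minus E50 (left) and E70 minus E60 (right), grouped by place in the complex. Purple points are the 6 called genes, all of them in the left panel, and the dashed line is the median of all probe sets (-0.18 left, 0.05 right). PSMA6, 1 of 17 genes whose negative change turned positive when arrays were centred on their medians, then lies at 0.06.

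Between bell and late bell stage no proteasome gene was called by limma, where 0.421% of all probe sets were called. Only PSMD4 had an unadjusted p under 0.05. The median change of E70 minus E60 was -0.03, and the 40 changes lay between -0.93 (PSME3) and 0.78 (PSMD4). For 34 of the 40 genes the 95% interval stayed within 2-fold in both directions. When the E60 and E70 arrays were fitted without the E50 arrays, 35 of 40 intervals stayed within 2-fold, 6 genes had an unadjusted p under 0.05 and none was called (lowest adjusted p 0.127), where 1.75% of all probe sets were called. The 5 genes with wider intervals were PSMA2, PSMB3, PSMD4, PSME3 and PSMF1. For 14 of the 40 genes (35%) E70 and E60 arrays did not overlap, against 34.1% of all genes.

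From cap to late bell stage 7 of the 40 genes were called (17.5%), against 18.8% of all probe sets and 21.6% of all genes (7.33% higher and 14.3% lower). These were the 6 genes above, each in the same direction, and PSMA1, which was lower at E70. This comparison shares the E50 arrays with the earlier step and the E70 arrays with the later one. The moderated F over the 3 stages called the same 7 genes, against 17.7% of all probe sets. Whether a gene changed differently in the 2 steps was tested directly, and no proteasome gene was called (lowest adjusted p 0.0809, for PSMC6, in limma, with 4 genes at an unadjusted p under 0.05), against 1.99% of all probe sets.

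**Figure D2:**
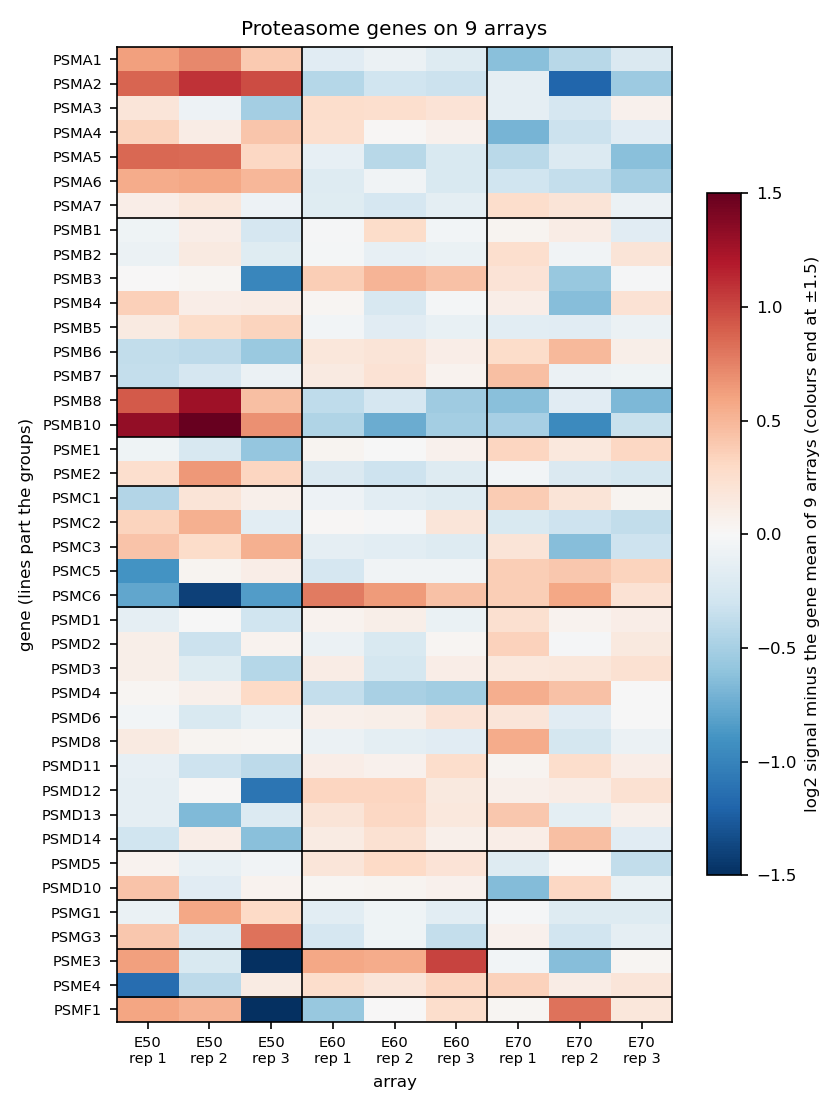
Log2 signal of the 40 genes (rows) on the 9 arrays (columns), each minus the gene's mean over the arrays, with colours ending at ±1.5. Pale rows show genes near their mean on all arrays. The darkest blocks at E50 are PSMA2, PSMB8 and PSMB10 above their mean, PSMC6 below it, and single squares of PSME3, PSME4 and PSMF1.

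The alpha ring held 3 of the 6 called genes. Its 7 genes had a median change of -0.71 for E60 minus E50, 3 called lower (42.9%, against 13.7% of all genes) and none higher. The 7 beta genes had a median of 0.15 with none called, against -0.18 for all probe sets. After quantile normalization the medians were -0.54 and -0.02, and with arrays centred on their medians both were positive (0.06 and 0.92, against 0.60 for all probe sets). For E70 minus E50 the medians were -0.94 for the alpha ring, with 4 called lower (57.1%, against 14.3% of all genes), and 0.17 for the beta ring, with none. No test of the difference between the rings was made.

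PSMA2, an alpha ring subunit, showed the widest gap of the ring. Its signals were 17064, 19634 and 18218 at E50, 6876, 7546 and 7396 at E60, and 8419, 4080 and 6350 at E70. All E50 arrays lay above all later arrays by a wide margin, while the E60 and E70 arrays overlapped. The change of E60 minus E50 was -1.33 ± 0.29 on the log2 scale (SE, limma adjusted p = 0.0217, n = 3 each). The call was lost without any 1 of the 3 E60 arrays (adjusted p up to 0.0807), but that of E70 minus E50 (-1.60 ± 0.29, adjusted p = 0.0107) was kept without each of the 9 arrays in turn. With arrays centred on their medians the changes were -0.56 and -0.89, and neither was called. Array weights lost both calls as well, quantile normalization and the replicate block the E60 call, and a fit of E50 and E70 arrays alone the E70 call.

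PSMA6, whose product lies in the same ring, had signals of 9880, 10030 and 9477 at E50, 5833, 6446 and 5704 at E60, and 5438, 5231 and 4699 at E70. These were 3 separate bands without overlap, the lowest at E70. The change was -0.71 ± 0.20 for E60 minus E50 (adjusted p = 0.0439) and -0.94 ± 0.20 for E70 minus E50 (adjusted p = 0.0170), and with arrays centred on their medians the E60 minus E50 change was 0.06. The E60 call was lost without E50 replicate 2 or any 1 of the E60 or E70 arrays (adjusted p up to 0.141), and the E70 call without E70 replicate 2 or 3 (adjusted p up to 0.0697). Both were lost with array weights, quantile normalization, the replicate block and fits of 2 stages, and with median centring, where the E70 minus E50 change was -0.23. With 75th percentile centring the E60 call was lost too.

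PSMA5 gave 2429, 2418 and 1659 at E50, 1229, 1005 and 1141 at E60, and 1016, 1163 and 871 at E70. E50 replicate 3 lay nearest to the later arrays but still above them. The changes were -0.93 ± 0.25 for E60 minus E50 (adjusted p = 0.0419) and -1.08 ± 0.25 for E70 minus E50 (adjusted p = 0.0248). The E60 call was lost without any 1 array other than E50 replicate 3 (adjusted p up to 0.138), and the E70 call without E60 replicate 3 or any 1 E70 array (adjusted p up to 0.0912). With arrays centred on their medians the changes were -0.15 and -0.37 (adjusted p = 0.759 and 0.437), and both calls were also lost with array weights, the replicate block and fits of 2 stages. With 75th percentile centring the E60 call was lost too.

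PSMA1 gave 4761, 5130 and 4065 at E50, 2756, 2920 and 2714 at E60, and 2008, 2327 and 2673 at E70. No E60 or E70 array reached the lowest E50 array. The change of E60 minus E50 missed the threshold (-0.73 ± 0.22, adjusted p = 0.0562), was called when E50 replicate 3 was left out, and was 0.05 with arrays centred on their medians. That of E70 minus E50 was called (-0.997 ± 0.22, adjusted p = 0.0201) and was lost without E70 replicate 1 or 2 (adjusted p up to 0.0695), with array weights, with the replicate block, with E50 and E70 arrays alone, and with median centring (-0.29). The 3 other alpha genes, PSMA3, PSMA4 and PSMA7, were called in no comparison, with changes of 0.37, -0.18 and -0.26 for E60 minus E50.

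In the beta ring the largest E60 minus E50 changes were 0.75 for PSMB3 and 0.59 for PSMB6, neither called (adjusted p = 0.176 and 0.0888). PSMB6, which carries the caspase-like site, had signals of 2312, 2288 and 2043 at E50, 3359, 3432 and 3220 at E60, and 3634, 4207 and 3179 at E70. Every later array lay above the E50 arrays, and E70 minus E50 just missed the threshold (0.72 ± 0.21, adjusted p = 0.0501). PSMB5 and PSMB7, the other constitutive active subunits, changed by -0.36 and 0.37 without a call.

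PSMC6, an ATPase of the regulatory particle's base, was the only proteasome gene called higher. Its signals were 1545, 1004 and 1485 at E50, 4557, 4119 and 3599 at E60, and 3434, 3979 and 3078 at E70. The lowest later array was about 2 times the highest E50 array, and E60 and E70 overlapped. The change was 1.62 ± 0.26 for E60 minus E50 (adjusted p = 0.00771, a 3.08-fold higher signal) and 1.40 ± 0.26 for E70 minus E50 (adjusted p = 0.0110). The E60 call held in all 18 alternative settings, with changes between 1.43 and 2.40 and adjusted p up to 0.0405. The E70 call was lost only when E50 and E70 arrays were fitted without the E60 arrays (adjusted p = 0.0591).

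The other measured ATPases of the same ring, PSMC1, PSMC2, PSMC3 and PSMC5, had E60 minus E50 changes of -0.09, -0.18, -0.58 and 0.13, none called. PSMC5 gave 770, 1471 and 1532 at E50, 1201, 1380 and 1381 at E60, and 1854, 1893 and 1796 at E70. Its E70 arrays lay above all others, without a call in any comparison. PSMC2 was measured by 3 probe sets, whose E60 minus E50 changes lay between -0.18 and 0.13.

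None of the 10 non-ATPase genes was called, and their E70 minus E50 changes were all positive, between 0.00 and 0.54, against a median of -0.11 for all probe sets, but after quantile normalization 7 of the 10 were. The regulatory particle as a whole had median changes of 0.15 for E60 minus E50 and -0.01 for E70 minus E60, with PSMC6 its only called gene. The sign of 0.15 was not stable, as it was -0.09 after quantile normalization. PSMD14, the subunit that removes ubiquitin chains, changed by 0.42 ± 0.28 for E60 minus E50 and by -0.02 ± 0.28 for E70 minus E60.

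PSMD4, a ubiquitin receptor, had its lowest signals at E60. It gave 692, 719 and 834 at E50, 529, 485 and 474 at E60, and 993, 926 and 675 at E70. The E60 arrays lay below all others, while E50 and E70 overlapped. Neither step was called (-0.59 ± 0.23, adjusted p = 0.120 for E60 minus E50 and 0.78 ± 0.23, adjusted p = 0.370 for E70 minus E60), nor was the difference between the steps (adjusted p = 0.122). The alpha gene PSMA7 also had all E60 arrays below the others, and PSMA3, PSMB3 and PSMD5 had all E60 arrays above them, none of these 4 with a call. Such E60 extremes were thus seen in 5 of the 40 genes (12.5%), near the 10.4% of all genes.

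**Figure D3:**
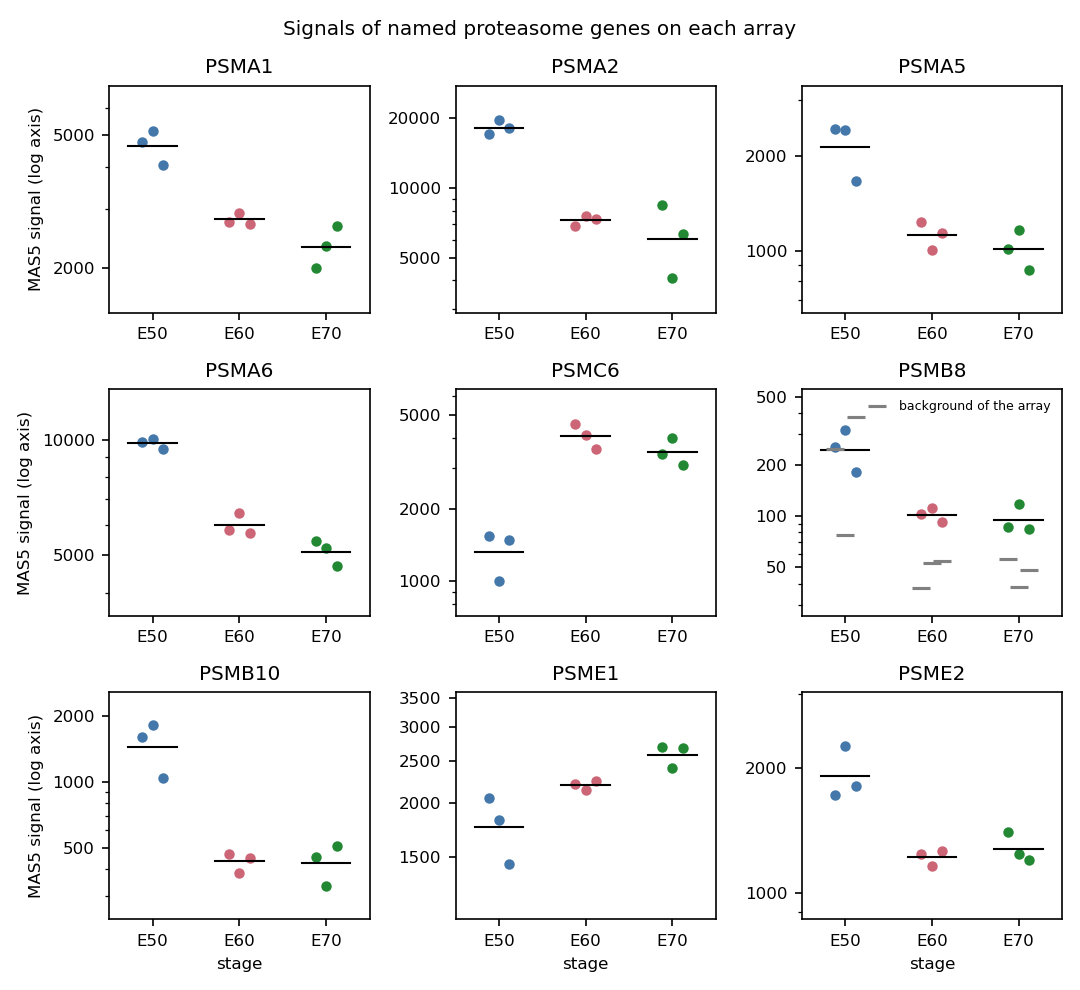
MAS5 signal on each array (points, log axis) of the 7 genes called in any comparison and of PSME1 and PSME2, by stage, with the geometric mean as a bar. In the PSMB8 panel grey dashes give each array's background. PSMC6 is higher at E60 and E70 than at E50, the alpha genes, PSMB8 and PSMB10 are lower, and with arrays centred on their medians the E60 minus E50 changes of PSMA1, PSMA6 and PSME2 are positive (0.05, 0.06 and 0.13).

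Of the 4 immune genes both beta subunits were lower after the cap stage and neither activator subunit was called. PSMB10, the immune form of the trypsin-like subunit, had signals of 1607, 1814 and 1037 at E50, 470, 384 and 451 at E60, and 456, 334 and 510 at E70. The lowest E50 array was about 2 times the highest later array. The change was -1.74 ± 0.30 for E60 minus E50 (adjusted p = 0.00971), -0.02 ± 0.30 for E70 minus E60 and -1.76 ± 0.30 for E70 minus E50 (adjusted p = 0.00798). The E60 call held without each of the 9 arrays in turn (adjusted p up to 0.0444) and was lost in 1 of 18 alternatives, with arrays centred on their medians (-0.96, adjusted p = 0.108).

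PSMB8, the immune form of the chymotrypsin-like subunit, gave 252, 320 and 181 at E50, 102, 112 and 92 at E60, and 86, 118 and 84 at E70. The stages E60 and E70 overlapped and all E50 arrays lay above both. The background of the E50 arrays was 248, 77.7 and 379, so that replicate 1 stood just above it, replicate 2 well above it and replicate 3 below it. The change was -1.27 ± 0.29 for E60 minus E50 (adjusted p = 0.0233) and -1.37 ± 0.29 for E70 minus E50 (adjusted p = 0.0171). The E60 call was lost without any 1 of the 3 E60 arrays (adjusted p up to 0.0840), and the E70 call without E70 replicate 1 or 3 (adjusted p up to 0.0678). Both were lost with the trended prior, with fits of 2 stages, with quantile normalization (-0.68 and -0.85) and with median centring (-0.49 and -0.66, adjusted p = 0.346 and 0.211), and the E60 call with array weights.

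PSME1 and PSME2 form the activator ring that opens the core particle's gate. PSME1 gave 2057, 1823 and 1442 at E50, 2212, 2144 and 2250 at E60, and 2694, 2411 and 2683 at E70. Its stages formed separate bands, the highest at E70, with changes of 0.33 ± 0.22 for E60 minus E50 (adjusted p = 0.330) and 0.56 ± 0.22 for E70 minus E50 (adjusted p = 0.115). PSME2 gave 1719, 2255 and 1804 at E50, 1237, 1163 and 1263 at E60, and 1403, 1238 and 1197 at E70. Its E50 arrays lay above all later ones, with changes of -0.65 ± 0.21 for E60 minus E50 (adjusted p = 0.0733) and -0.58 ± 0.21 for E70 minus E50 (adjusted p = 0.0980), and with arrays centred on their medians both were 0.13. In the RefSeq annotation of the pig the pair has 1 protein-coding gene between them, EMC9.

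The immune beta subunits take the places of constitutive ones in the barrel, so the log2 ratio of each pair was followed on each array, where the scaling of the array cancels. The ratio of PSMB10 to PSMB7, centred on the 9 arrays, was 1.68, 1.74 and 0.78 at E50, -0.59, -0.96 and -0.57 at E60, and -0.95, -0.86 and -0.28 at E70. The E50 arrays lay above all others, and the ratio changed by -2.11 for E60 minus E50 and by 0.01 for E70 minus E60. The ratio of PSMB8 to PSMB5 was 0.78, 0.99 and 0.12 at E50, -0.33, -0.07 and -0.43 at E60, and -0.47, -0.01 and -0.58 at E70. It changed by -0.91 for E60 minus E50, again without overlap, and by -0.07 for E70 minus E60. PSMB8 lay below background on E50 replicate 3 and just above it on replicate 1, so background enters these E50 ratios. After quantile normalization the earlier change was -0.36. No test was made of these ratios, and the third pair could not be followed without PSMB9.

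**Figure D4:**
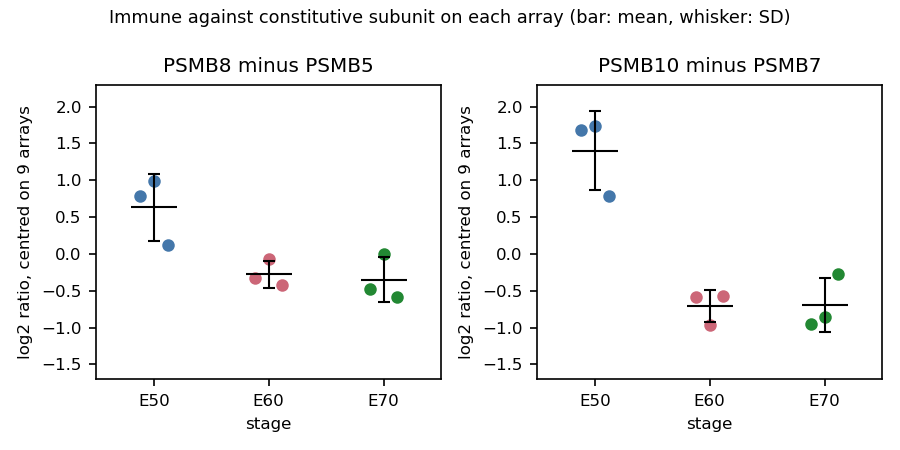
Log2 ratio of each immune beta subunit to the constitutive subunit it replaces, on each array, centred on the mean of the 9 arrays (points), with the stage mean and SD (bar and whiskers, n = 3). Both ratios are highest at E50, and E60 and E70 overlap.

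Markers of leukocytes and skeletal muscle had lower summed signals at the later stages. Of 19 measured leukocyte genes 5 were called lower and 1 higher for E60 minus E50 (31.6%, against 20.9% of all genes, median -1.46). The 1 higher, C1QA, was below background on the E50 arrays. The summed signal of the 19 lay between 7169 and 8876 on E50 arrays, 2805 and 2992 on E60 arrays, and 1385 and 1579 on E70 arrays. Of the 19 genes 6, 10 and 6 exceeded background on all arrays of E50, E60 and E70. The sums thus include genes at background, which was higher at E50, and its part in them was not tested. The leukocyte sums of E70 all lay below those of E60. PTPRC, the marker carried by all leukocytes, was below background on all 9 arrays. Skeletal muscle markers were called lower in 6 of 9 genes (66.7%), with sums between 6726 and 9479 on E50 arrays, 1974 and 2121 on E60 arrays, and 624 and 670 on E70 arrays. Of the endothelial markers 2 of 11 were called lower and none higher (18.2%). Of all genes 20.9% were called in either direction and 13.7% lower. The endothelial sums were 5066 to 5309, 3916 to 4433 and 2479 to 2947 at the 3 stages. Of the red blood cell markers 1 of 4 was called higher (25%). Their sums were 1227 to 2689, 2597 to 3059 and 2599 to 4124, a rise carried by HBB, while the other 3 had negative changes for E70 minus E50. The part of these cells in the immune subunits' values was not tested. In whole germs fewer cells of a type and less RNA per cell cannot be told apart.

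Genes that work with the immune proteasome were examined as lists. Of 11 measured genes of class I presentation 3 were called lower and none higher for E60 minus E50 (27.3%, against 20.9% of all genes), with a list median of 0.20. These were B2M, the light chain of class I molecules (-2.66, adjusted p = 0.00102), and the heavy chains SLA-3 (-1.15, adjusted p = 0.0388) and SLA-8 (-0.84, adjusted p = 0.0360). Another SLA-8 probe set changed by -0.54 and was not called (adjusted p = 0.140). The brightest B2M probe set gave 336369, 308373 and 315657 at E50, 47484, 52092 and 52092 at E60, and 61114, 53429 and 42799 at E70, but B2M has 8 other probe sets, of which 1 was called lower (-0.93) and 1 higher (1.04). The SLA genes are related in sequence, so that their probe sets may share transcripts, which was not tested. TAP1, the peptide transporter gene that lies between PSMB8 and PSMB9, gave 676, 573 and 65 at E50, 402, 385 and 529 at E60, and 575, 671 and 575 at E70. Its E50 arrays overlapped both later stages, with no call. E50 replicate 3, at 65, lay below the background of its array (379), and the overlap with E60 came from this array alone.

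Of 27 measured interferon response genes 4 were called lower and 1 higher for E60 minus E50 (18.5%, against 20.9% of all genes), with a median of -0.62. The lower ones were SOCS1 (-2.15, adjusted p = 0.0258), MX2 (-1.94, adjusted p = 0.0498), STAT2 (-0.92, adjusted p = 0.0279) and IRF1, a transcription factor known to act on immune proteasome genes (-0.92, adjusted p = 0.0271). Other probe sets of SOCS1 (0.32 and -1.64) and of MX2 (-1.09) were not called. IRF1 gave 457, 368 and 507 at E50, 209, 240 and 250 at E60, and 197, 210 and 211 at E70, so that all E50 arrays were above all later ones. DDX58, the one called higher, was below background on all 3 E50 arrays, and no fold is given for it. By their brightest probe sets no gene of the class I or interferon lists was called for E70 minus E60, while another B2M probe set was called lower (-1.53, adjusted p = 0.0437).

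Among 12 measured partners of the proteasome, such as ubiquitin genes and shuttle factors, 2 were called lower and none higher for E60 minus E50 (16.7%, against 20.9% of all genes, median 0.16). SEM1, a small subunit of the regulatory particle outside the PSM naming, gave 15743, 15502 and 13830 at E50, 7644, 7025 and 6645 at E60, and 7496, 4642 and 6475 at E70. Its E50 arrays lay well above the rest, with changes of -1.08 for E60 minus E50 (adjusted p = 0.0236) and -1.30 for E70 minus E50 (adjusted p = 0.0119). RPS27A, which encodes ubiquitin fused to a ribosomal protein, changed by -2.53 by its brightest probe set (adjusted p = 0.00118) and by 1.31 by its other one (adjusted p = 0.00855), so no direction is given for the gene. VCP, which extracts ubiquitin-tagged proteins, changed by 0.31 and 0.05 in the 2 steps by its brightest probe set and by -0.54 and -0.19 by its other one, without a call. No partner was called for E70 minus E60.

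The 7 remaining genes were called in no comparison. The core chaperones PSMG1 and PSMG3 changed by -0.39 and -0.56 for E60 minus E50, and the base chaperones PSMD5 and PSMD10 by 0.27 and -0.06. PSME4, an activator known from nuclei and male germ cells, gave 324, 544 and 777 at E50, 853, 810 and 890 at E60, and 908, 770 and 807 at E70. All E60 arrays were above the E50 ones (0.72 ± 0.33, adjusted p = 0.169), and the gene was among those called higher when E50 replicate 3 was left out. The nuclear activator PSME3 and the inhibitor PSMF1 were the most variable of the 40 genes, with SEs of 0.60 and 0.66 for each change.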

How the data were processed

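Per the supplementary methods and the labels, the authors hybridised biotin-labelled RNA to the Affymetrix Porcine Genome Array and computed 1 MAS5 signal per probe set in GeneSpring. The deposited values are linear intensity values, with a trimmed mean of 500.1 on every array. Detection calls were not used here. Precision is limited by the number of arrays, which carry no read depth.

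Values under 1 were set to 1, log2 was taken, and 124 array controls were left out of 24123 probe sets. Symbols came from the platform table (10069 probe sets with 1 symbol, 198 with several, 13732 with none), and all 40 proteasome gene numbers were found in RefSeq. All 9 arrays entered 1 fit in limma 3.58.1 (R 4.3.3, lmFit and eBayes), with Benjamini-Hochberg adjustment over 23999 probe sets. The fit was tested on simulated data, where a limit on false calls was set only for stages of equal spread. Under unequal spreads that test set no limit, so it does not bound false calls there. The fit shares 1 spread between stages, although the E50 arrays varied most. Over all probe sets their median log2 SD reached 1.03, against 0.26 for the E60 arrays and 0.32 for the E70 arrays. The shared spread can thus understate the error of changes that involve E50. P-values measure the spread between the arrays of a stage, and whether these hold separate pools of RNA is not stated. The study's methods used a random variance model F test, to which the moderated F corresponds.

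The members and lists were chosen with earlier results of these data known. Signals per array are given for every proteasome gene called, for the immune subunits and for PSMB6, PSMC5, PSMD4 and PSME4, of which the last 4 were chosen after their values were seen. Of each list up to 6 called genes are named, and TAP1 and VCP were added after their values were seen. Alternatives were quantile normalization, centring on the median or 75th percentile, log2(signal + 16), a background filter, a trended robust prior, array weights, fits of 2 stages, the replicate number as a block, the next-brightest probe set, and leaving out each array. Promoter sequences were not analysed here.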

Additional observations from a re-analysis of the deposited data

Results flagged for a closer look

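For 3 genes of the lists the change of the later step differed from that of the earlier step, by the test of that difference in the limma fit. No proteasome gene met this. The difference, E70 minus E60 less E60 minus E50, was 2.40 on the log2 scale for the brightest probe set of RPS27A (adjusted p = 0.0337), which changed by -0.14 in the later and by -2.53 in the earlier step, while the gene's other probe set moved the other way in the earlier step. It was 2.70 for the brightest probe set of B2M (adjusted p = 0.0286), with 0.04 in the later and -2.66 in the earlier step, while another B2M probe set had a difference of -1.92 (adjusted p = 0.0532). It was -3.62 for C1QA, a complement gene of macrophages (adjusted p = 0.0106), whose signals were 14 to 16 on the E50 arrays, below their background.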

How the results depend on the processing

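Arrays set the limits here through their signal over background, lowest on E50 replicates 1 and 3, and their number. Against 6 proteasome genes called for E60 minus E50, 2 were called with array weights (PSMB10 and PSMC6), 3 with E50 and E60 arrays alone and 3 with the replicate number as a block, all among the 6. A trended robust prior called 11, of which 5 were among the 6, and median centring 14, of which 1 was. Against 7 for E70 minus E50, array weights called 3, E50 and E70 arrays alone 1 (PSMB10) and the block 4, all among the 7, while the trended prior called 14 (6 shared) and median centring 14 (1 shared). Quantile normalization called 6 in either comparison, sharing 3 of the 6 and 5 of the 7. By F they were 2 with array weights, 3 with the block and 13 with the trended prior. The difference between the steps, 0 otherwise, was called for 1 gene (PSMC6) with array weights, with median centring and among probe sets above background, and for 3 with the trended prior. Leaving out 1 array gave 2 to 8 calls for E60 minus E50 (2 without any 1 E60 array, 4 without E50 replicate 2 or any 1 E70 array), 4 to 9 for E70 minus E50 (4 without any 1 E70 array), 2 to 7 by F, and 0 to 2 for the difference (2 without E50 replicate 3). E70 minus E60 had 0 calls in all alternatives.

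Median centring moved the E60 minus E50 median of all probe sets by 0.77 and quantile normalization by 0.18. Under median centring the medians were 0.56 for core, 0.93 for regulatory and -0.18 for immune genes, and 17 of the 21 negative E60 minus E50 changes turned positive, all but those of PSMA2, PSMA5, PSMB8 and PSMB10. Among the 17 were PSMA1 (0.047), PSMA6 (0.065) and PSME2 (0.127, and 0.126 for E70 minus E50). The regulatory median was 0.19 with 75th percentile centring, -0.088 with quantile normalization, and 0.079 to 0.20 without 1 array. For E70 minus E60 it was 0.065 by next-brightest probe sets and -0.029 to 0.13 without 1 array. The PSMB8 to PSMB5 ratio changed by -0.36 with quantile normalization. The causes were not tested.

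Replicate numbers did not pair the arrays, since same-numbered arrays of different stages had deviations correlated at -0.02 to 0.03, so the block counts above are no sign of a weaker effect. The background filter gave 9 calls for the earlier step, 0 for the later one and 10 for E70 minus E50.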
